A study of Mus musculus with 9 samples.

Results

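Complex I genes were examined in sorted midbrain dopamine (DA) neurons of mouse embryos that carried 0, 1 or 2 floxed alleles of Dot1l, the enzyme that methylates histone H3 at lysine 79 (H3K79). The genes were taken by symbol: every gene named Ndufa, Ndufb, Ndufc, Ndufs, Ndufv, Ndufab or Ndufaf followed by a number, pseudogene symbols left out. This gave 45 of the 47729 genes counted, and all 45 passed the filter on low counts, which kept 17988 genes. Of the 45, 7 are core subunits, 29 accessory subunits and 7 assembly factors. The other 2, Ndufa4 and Ndufa4l2, bear the symbol only, since Ndufa4 is today counted with complex IV and Ndufa4l2 is its paralogue. Ndufb1 and Ndufaf8 were not analysed here.

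All embryos were Pitx3-Cre/+ and Rosa-lox-stop-lox-Yfp on the C57/Bl6 strain and were taken at E15.75, so the controls carried Cre and the reporter as well. Those with the genotype Dot1l-+/+ are written Dot1l(+/+), those with Dot1l-Floxed/+ are written Dot1l(fl/+), and Dot1l(fl/fl) stands for Dot1l-Floxed/Floxed. The deletion removes a single exon of Dot1l and takes place only where Pitx3 drives Cre, which in the midbrain is the post-mitotic DA neuron. Per the study's methods, each pregnant female gave 1 embryo of each genotype, and embryos of different females were pooled for a library. The genotypes thus share litters, but the sources used here do not say whether libraries with the same replicate number hold the same litters. The labels name 9 libraries, of which 8 were analysed. There were 3 of Dot1l(+/+), another 3 of Dot1l(fl/+), and 2 labelled Dot1l(fl/fl), whose replicate 3 was not analysed here. The p-values measure the spread between these pools.

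Complex I, NADH:ubiquinone oxidoreductase, is the first enzyme of the respiratory chain. It takes electrons from NADH, passes them along a chain of iron-sulfur clusters to ubiquinone, and pumps protons across the inner mitochondrial membrane. Its matrix arm carries the NADH site and the clusters, and its membrane arm carries the pumps, whose core subunits are encoded by mitochondrial DNA. The remaining core subunits and all accessory subunits are encoded in the nucleus, and assembly factors build the enzyme but are absent from its mature form. In midbrain DA neurons complex I is best known as the target of toxins that cause parkinsonism.

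The libraries held between 13616922 and 43674673 counts, the 2 labelled Dot1l(fl/fl) being the shallowest. Levels are given in CPM (read counts scaled to the size of the library), and a count of 3, the limit that a count of 0 allows, lay between 0.0694 and 0.216 CPM. Dot1l itself was at 105.2, 84.6 and 94.6 CPM in Dot1l(+/+), at 75.5, 65.6 and 76.2 CPM in Dot1l(fl/+), and at 64.9 and 99.1 CPM in the pair labelled Dot1l(fl/fl). The second of this pair lay inside the control range. These are counts of the whole gene, while the deletion removes a single exon, so they cannot check the genotype. Counts of that exon alone were not examined, and Dot1l(fl/fl) below stands for the libraries labelled so. The 10 DA neuron markers (Th, Slc6a3, Pitx3 and others) were expressed in every library, with a summed level of 5831.4 to 6702.5 CPM in Dot1l(+/+), 5823.5 to 6244.7 CPM in Dot1l(fl/+), and 5651.8 and 4673.7 CPM in Dot1l(fl/fl).

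Ndufs5 is an accessory subunit of the membrane arm that faces the intermembrane space. It had the lowest log2 fold change of the members in Dot1l(fl/fl) against Dot1l(+/+), and was named with earlier results of these data known. Its sequence is shown because the genome holds a processed copy of it. Ndufs5 (ENSMUSG00000028648) lies on chromosome 4 from 123712710 to 123718202 on the minus strand of GRCm38. The copy, BC002163, is annotated as a processed pseudogene on chromosome 16 from 42955631 to 42955949 on the plus strand. Over all 319 bases of the copy, 2 bases differed from the Ndufs5 transcript and there was no gap. The first 300 of these bases are given below, all of them coding sequence in Ndufs5 (bases 248 to 547 of its longest transcript of 680 bases, GENCODE M21), with capitals at the differing bases.
Ndufs5: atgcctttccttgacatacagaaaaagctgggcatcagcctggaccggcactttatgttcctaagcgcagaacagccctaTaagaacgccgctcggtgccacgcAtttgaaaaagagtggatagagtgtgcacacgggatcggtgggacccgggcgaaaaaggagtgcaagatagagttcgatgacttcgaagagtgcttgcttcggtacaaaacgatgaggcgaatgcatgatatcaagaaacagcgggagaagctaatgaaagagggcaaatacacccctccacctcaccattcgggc
BC002163: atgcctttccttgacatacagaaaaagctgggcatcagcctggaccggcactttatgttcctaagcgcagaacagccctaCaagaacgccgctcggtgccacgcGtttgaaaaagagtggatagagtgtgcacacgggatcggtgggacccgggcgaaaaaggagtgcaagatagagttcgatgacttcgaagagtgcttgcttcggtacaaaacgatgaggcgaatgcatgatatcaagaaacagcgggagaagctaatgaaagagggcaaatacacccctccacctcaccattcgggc

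A read that lies wholly within the 319 aligned bases and covers neither of the 2 differing bases matches both genes equally well. How such reads were counted is not given in the sources used here. Of the stretches of 50 bases in the Ndufs5 transcript, 31.1% were also found in BC002163. In all, 5 members had such a processed copy with at least 10% of their stretches. The others were Ndufb4 with Ndufb4c (37.0% of stretches, and 0 of 390 aligned bases differing), Ndufs3 with Gm12251 (35.5%, 11 of 792), Ndufa12 with Gm15920 (17.2%, 2 of 402) and Ndufab1 with Gm4459 (10.8%, 1 of 468). A further source of shared reads is overlap, since 19 members overlap another annotated gene, 3 of them on the same strand. The libraries came from a directional kit, but the strand setting of the counting is not given in the sources used here.

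Promoter windows were looked at because most members lay on the same side of zero. A window of 250 bases before to 50 bases after the RefSeq start site (GRCm38.p6) was found for 39 of the 45 members. The letters CATGCGC, a motif of nuclear respiratory factor NRF1, were present on either strand in 7 of the 39 (17.9%), against 4.41% of the 27025 genes in the table. The letters AAGATGG, a YY1 motif, were present in 7 (17.9%, against 7.28%), CCGGAAG, an ETS motif, in 5 (12.8%, against 9.93%), and AAGGTCA, an oestrogen-related receptor motif, in 3 (7.69%, against 5.38%). The ETS motif ends in the letters AAG with which the YY1 and receptor motifs begin, so that these can share bases. A match is a description of the letters in the window and not a site. The genes in the table were not limited to those that passed the filter on low counts, as all members did. The shares are therefore not matched for expression. The 250 bases before the start are given below for the 3 members with the smallest p when Dot1l(fl/fl) was set against Dot1l(+/+), the 4 motifs being in capitals: Ndufs5 at chr4:123718187-123718436 on the minus strand, Ndufaf5 at chr2:140170396-140170645 on the plus strand and Ndufb4 at chr16:37654369-37654618 on the minus strand.
Ndufs5: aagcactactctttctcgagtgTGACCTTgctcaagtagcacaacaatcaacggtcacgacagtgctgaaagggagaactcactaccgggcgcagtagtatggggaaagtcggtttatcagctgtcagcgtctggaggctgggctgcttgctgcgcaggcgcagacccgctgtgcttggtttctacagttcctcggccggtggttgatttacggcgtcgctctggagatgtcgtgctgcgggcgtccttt
Ndufaf5: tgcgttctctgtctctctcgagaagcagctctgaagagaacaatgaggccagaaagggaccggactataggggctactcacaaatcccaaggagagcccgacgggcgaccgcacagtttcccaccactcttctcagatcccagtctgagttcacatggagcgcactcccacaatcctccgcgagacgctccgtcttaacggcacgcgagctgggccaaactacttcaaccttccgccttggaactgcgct
Ndufb4: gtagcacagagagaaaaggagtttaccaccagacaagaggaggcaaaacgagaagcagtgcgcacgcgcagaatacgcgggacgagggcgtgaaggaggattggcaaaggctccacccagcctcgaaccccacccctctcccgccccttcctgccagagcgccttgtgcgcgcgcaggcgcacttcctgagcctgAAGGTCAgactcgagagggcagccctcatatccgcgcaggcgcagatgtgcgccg

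Ndufs5 and Ndufb4 each held the receptor motif once in these bases, and Ndufaf5 held none of the 4 before its start. Its NRF1 motif lay in the 50 bases after the start.

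In control neurons the members differed widely in level. Levels between genes are compared as CPM per kilobase of exon (mean of 3 Dot1l(+/+) libraries). The length is that of all annotated exons of a gene together, which can exceed that of any transcript. For Ndufs1 it is 8086 bases, while its longest transcript has 2661. The order is therefore approximate. Ndufc2, a subunit of the membrane arm next to the matrix arm, had the highest level at 145.3 ± 25.6 CPM per kilobase (SD, n = 3), followed by Ndufa8, a cysteine-rich subunit of the intermembrane space side, at 115.5 ± 16.9 and Ndufa1 at 101 ± 13.4. The libraries of neighbours in this order overlapped. The 7 core subunits had a median of 49.37 CPM per kilobase, and the 29 accessory subunits between 2.236 and 145.3 with a median of 37.04. The 7 assembly factors lay lower, between 6.109 and 15.56 with a median of 8.27. Ndufs5 was at 10.47 ± 2.82 CPM per kilobase, place 36 of 45. Ndufb4 at 2.236 was the lowest true subunit by this measure. How reads that match both Ndufb4 and its copy Ndufb4c were counted is not given, so its level may be understated. Ndufa4l2, which is induced by low oxygen in other cells, was the lowest of the 45 at 0.4756 CPM per kilobase.

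Which complex I transcripts differ when both alleles are floxed was examined by setting Dot1l(fl/fl) against Dot1l(+/+). Most complex I genes had slightly higher values in Dot1l(fl/fl), none past the test, and Ndufs5 had a far lower one. The median log2 fold change was 0.167 over the core and 0.197 over the accessory subunits, a difference that was not tested. Of the 45 members, 40 (88.9%) had a log2 fold change above 0, against 49.5% of all genes tested, and their median was 0.181, against -0.003 over all genes. When exon length and GC content were offset the median was 0.08, and with a replicate block as well it was 0.057. No single member passed the test. By edgeR's quasi-likelihood test with Benjamini-Hochberg adjustment over all 17988 genes, 0 members had an adjusted p under 0.05, and 0 of all genes did (0%). DESeq2 called 226 of all genes and 0 members, but it gave an adjusted p for 23 members only, the smallest being 0.116. The 22 without one included Ndufs5, Ndufaf5, Ndufb4, Ndufa1 and Ndufaf6, so DESeq2 could not call these. Ndufs5 had a DESeq2 unadjusted p of 9.03e-05. At an unadjusted p under 0.05 there were 7 members (15.6%), 6 higher and 1 lower, against 9.27% of all genes. The 6 higher are 13.3% of the members, against 4.24% of all genes, and the 1 lower compares with 5.03% of all genes. In 12 of the 45 members both Dot1l(fl/fl) libraries lay above all 3 Dot1l(+/+) libraries, against 12.1% of all genes. In 1 of the 45, Ndufs5, both lay below, against 11.6% of all genes. Single controls weighed on these values. Without Dot1l(+/+) 2 the median was 0.279 and 22 members had an unadjusted edgeR p under 0.05. The change went beyond the members, since 75 of all 17721 genes then had an edgeR adjusted p under 0.05. Without Dot1l(+/+) 1 the median of the members was 0.136, with 2 members at the unadjusted threshold, and without Dot1l(+/+) 3 it was 0.116. The share of all genes at the unadjusted threshold is not given for these fits.

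**Figure D1:**
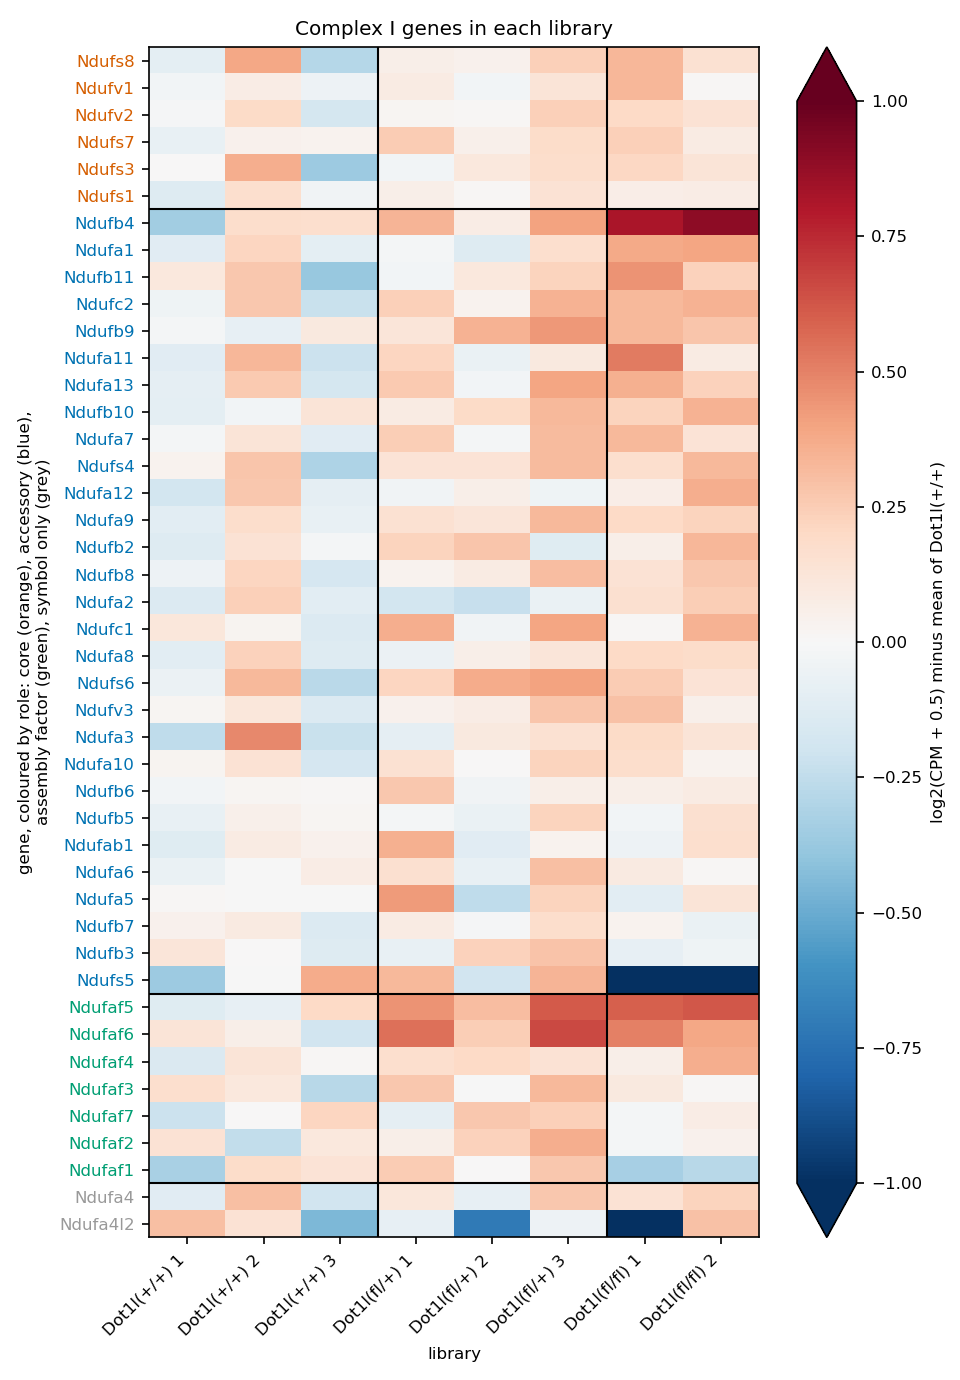
Each row is 1 of 44 of the genes, ordered by role and then by fold change, and each column is 1 of the 8 libraries. The colour is log2(CPM + 0.5) minus the mean of the 3 Dot1l(+/+) libraries, from blue (lower) to red (higher), with values beyond 1 drawn at the end of the scale. Ndufs5 is blue in both Dot1l(fl/fl) libraries while Ndufb4, Ndufaf5 and Ndufaf6 are red, and Dot1l(+/+) 2 is redder than the other controls.

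The matrix arm gave the most even picture in Dot1l(fl/fl) but not in Dot1l(fl/+). In Dot1l(fl/+) against Dot1l(+/+), 14 of its 16 nuclear subunits had a log2 fold change above 0. All 9 membrane arm subunits next to the matrix arm and all 10 distal ones did. In Dot1l(fl/fl) against Dot1l(+/+) all 16 of the matrix arm lay above 0, with a median of 0.18, but 0 of the 16 had an unadjusted p under 0.05. The values that follow are for Dot1l(fl/fl) unless named. Its 7 core subunits had a median of 0.167, and 7 of 7 lay above 0. Ndufs7, which carries the cluster that hands electrons to ubiquinone, was at 45.51, 49.61 and 49.17 CPM in Dot1l(+/+), 57.45, 49.87 and 54.62 CPM in Dot1l(fl/+), and 56.85 and 51.04 CPM in Dot1l(fl/fl). It was the core subunit in which both floxed genotypes lay wholly above the controls, with log2 fold changes of 0.17 ± 0.14 (SE) in Dot1l(fl/fl) and 0.17 ± 0.12 in Dot1l(fl/+).

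The subunits of the NADH end had the same sign with overlapping groups. Ndufv1, which binds NADH and the flavin, was at 145.29, 155.87 and 142.95 CPM in Dot1l(+/+), 156.57, 145.12 and 162.06 CPM in Dot1l(fl/+), and 185.85 and 149.46 CPM in Dot1l(fl/fl) (log2 fold change 0.18 ± 0.11 in Dot1l(fl/fl)). Ndufv2, an iron-sulfur subunit beside it, was at 125.84, 145.62 and 112.28 CPM, then 129.12, 128.14 and 150.53 CPM, then 146.38 and 140.82 CPM (0.17 ± 0.12). Ndufs1, the largest iron-sulfur subunit, was at 116.53, 143.71 and 124.57 CPM, then 133.39, 128.74 and 141.11 CPM, then 133.59 and 134.41 CPM (0.06 ± 0.11). The control Dot1l(+/+) 2 was above both Dot1l(fl/fl) libraries in Ndufs1 and above 1 of them in Ndufv1 and Ndufv2. Without Dot1l(+/+) 1 the Ndufs1 value became -0.004.

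Ndufs8, an iron-sulfur subunit that leads to the ubiquinone site, was at 58.25, 81.92 and 51.04 CPM in Dot1l(+/+), 65.22, 64.35 and 73.66 CPM in Dot1l(fl/+), and 78.6 and 69.55 CPM in Dot1l(fl/fl) (log2 fold change 0.22 ± 0.16). Ndufs3, a scaffold subunit without a cluster, was at 22.93, 29.6 and 17.67 CPM, then 22.44, 24.71 and 25.87 CPM, then 26.51 and 25.05 CPM (0.14 ± 0.21). Both had their highest value of all libraries in Dot1l(+/+) 2 and their lowest in Dot1l(+/+) 3, and without the latter Ndufs3 was at -0.027. Summed with its copy Gm12251, Ndufs3 had a log2 fold change of 0.27 ± 0.14 and an edgeR adjusted p of 0.579.

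The largest positive value of a member was in the membrane arm. Ndufb4, a small subunit of its distal end, was at 3.2, 4.84 and 4.81 CPM in Dot1l(+/+), 5.48, 4.46 and 5.73 CPM in Dot1l(fl/+), and 7.82 and 8.28 CPM in Dot1l(fl/fl). Both Dot1l(fl/fl) libraries lay above all 6 others, and the log2 fold change was 0.91 ± 0.34 (edgeR adjusted p 0.364). Its copy Ndufb4c, whose 390 bases match Ndufb4 throughout, was listed with 0 counts in every library. Ndufb4 was also among the members with the largest spread between replicates, at a biological coefficient of variation of 27.7%, against 9.67% for Ndufa9.

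Ndufa1, a single-pass subunit where the arms meet, was at 38.83, 48.79 and 39.29 CPM in Dot1l(+/+), 41.6, 38.52 and 47.41 CPM in Dot1l(fl/+), and 54.99 and 55.44 CPM in Dot1l(fl/fl). It was higher in both Dot1l(fl/fl) libraries than in any other library, with log2 fold changes of 0.38 ± 0.15 against Dot1l(+/+) (edgeR adjusted p 0.424) and 0.38 ± 0.15 against Dot1l(fl/+) (0.998), while Dot1l(fl/+) was level with the controls at 0.01 ± 0.14. Ndufb9, which binds the mitochondrial acyl carrier protein in the distal arm, had another order: 87.28, 83.65 and 94.89 CPM in Dot1l(+/+), 96.36, 112.82 and 119.6 CPM in Dot1l(fl/+), and 110.91 and 107.42 CPM in Dot1l(fl/fl). All 5 floxed libraries lay above all 3 controls, with log2 fold changes of 0.30 ± 0.12 in Dot1l(fl/fl) (edgeR adjusted p 0.408) and 0.31 ± 0.11 in Dot1l(fl/+) (0.94). Ndufb9 is one of the 3 members that overlap a gene on the same strand.

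Ndufc2, the most highly expressed member per kilobase, was at 105.3, 130.62 and 92.67 CPM in Dot1l(+/+), 128.18, 111.24 and 137.91 CPM in Dot1l(fl/+), and 136.11 and 137.8 CPM in Dot1l(fl/fl) (log2 fold change 0.32 ± 0.13, edgeR adjusted p 0.433). Ndufa8 was at 91.91, 116.25 and 90.22 CPM, then 94.88, 103.15 and 107.51 CPM, then 113.2 and 112.38 CPM (0.18 ± 0.12). In both, Dot1l(+/+) 2 was the highest control and lay just below the Dot1l(fl/fl) libraries in Ndufc2 and above them in Ndufa8. Of the 10 distal subunits 8 had a log2 fold change above 0 (median 0.201), and of the 9 subunits next to the matrix arm 8 did (median 0.191).

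The subunits with values just below 0 had groups that overlapped. Ndufb3 was at 34.39, 31.65 and 28.91 CPM in Dot1l(+/+), 29.94, 37.08 and 38.66 CPM in Dot1l(fl/+), and 29.84 and 30.67 CPM in Dot1l(fl/fl) (log2 fold change -0.06 ± 0.17). Ndufb7 was at 72.11, 74.77 and 63.79 CPM, then 74.39, 69.38 and 79.08 CPM, then 71.61 and 66.88 CPM (-0.02 ± 0.13). Both belong to the distal membrane arm, and their intervals of 1 SE include 0.

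**Figure D2:**
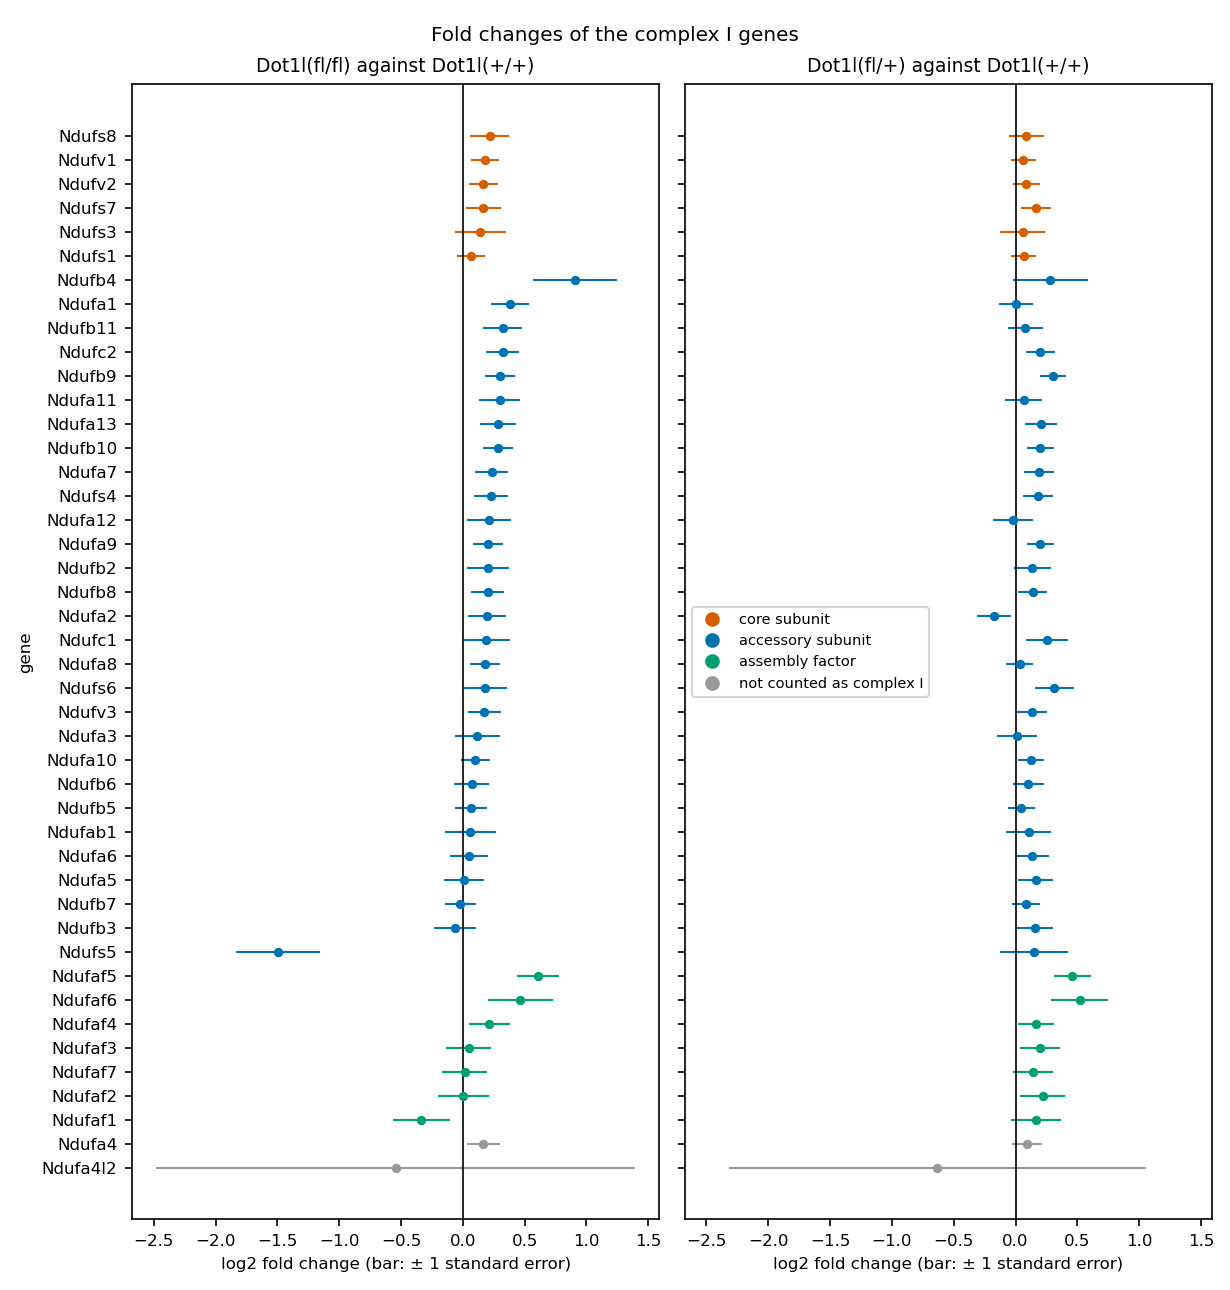
Log2 fold changes (horizontal axis, bars ± 1 SE) of 44 of the genes in Dot1l(fl/fl) against Dot1l(+/+) on the left and Dot1l(fl/+) against Dot1l(+/+) on the right, coloured by role. Most points lie between 0 and 0.5 in both, Ndufs5 lies at -1.50 on the left and 0.15 on the right, and the wide bars at the bottom are those of Ndufa4l2.

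Ndufs5, named with earlier results of these data known, had the smallest p of the members in Dot1l(fl/fl) against Dot1l(+/+). Its counts were 174, 308 and 499 in Dot1l(+/+), 331, 218 and 320 in Dot1l(fl/+), and 48 and 53 in Dot1l(fl/fl). These correspond to 6.72, 8.77 and 11.54 CPM (9.01 ± 2.42, SD, n = 3), 11.12, 7.66 and 11.25 CPM (10 ± 2.03, SD, n = 3), and 2.62 and 3.82 CPM (3.22 ± 0.843, SD, n = 2). Both Dot1l(fl/fl) libraries lay below all 6 others, while Dot1l(fl/+) and Dot1l(+/+) overlapped. The log2 fold change was -1.50 ± 0.34 in Dot1l(fl/fl) against Dot1l(+/+), place 22 by p among 17988 genes, with an unadjusted p of 0.000198 and an edgeR adjusted p of 0.16. Against Dot1l(fl/+) it was -1.64 ± 0.34, the smallest p of all genes in that comparison (6.98e-05), and its edgeR adjusted p was 0.717. In Dot1l(fl/+) against Dot1l(+/+) it was 0.15 ± 0.28. Without a filter on low counts the edgeR adjusted p was 0.0215 against Dot1l(+/+) and 0.0161 against Dot1l(fl/+). In these fits 106 and 14 of all 23694 genes had an edgeR adjusted p under 0.05. With the replicate block and the length and GC offset the edgeR adjusted p of Ndufs5 was 0.0615 and 0.0448. There 17 and 9 of all 17988 genes were under 0.05, against 0 in the fit as reported.

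The copy BC002163 took more counts than Ndufs5 and did not show this pattern. It was at 22.43, 28.26 and 21.42 CPM in Dot1l(+/+), 27.08, 25.66 and 28.68 CPM in Dot1l(fl/+), and 26.89 and 23.04 CPM in Dot1l(fl/fl), groups that overlapped throughout (log2 fold change 0.06 ± 0.19 in Dot1l(fl/fl) against Dot1l(+/+), edgeR adjusted p 0.983). Ndufs5 took 23.1%, 23.7% and 35.0% of the pair's CPM in Dot1l(+/+), 29.1%, 23.0% and 28.2% in Dot1l(fl/+), and 8.9% and 14.2% in Dot1l(fl/fl). Summed over both genes, the level was 29.14, 37.03 and 32.96 CPM in Dot1l(+/+), 38.2, 33.32 and 39.93 CPM in Dot1l(fl/+), and 29.52 and 26.85 CPM in Dot1l(fl/fl). The sum had a log2 fold change of -0.23 ± 0.17 against Dot1l(+/+) (edgeR adjusted p 0.743) and -0.40 ± 0.17 against Dot1l(fl/+) (0.998). The Dot1l(fl/fl) values then overlapped those of Dot1l(+/+) but still lay below every Dot1l(fl/+) library (unadjusted edgeR p 0.0299 against Dot1l(fl/+)). Summing the pair was chosen after seeing the data, and whether reads were moved between the pair was not tested.

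**Figure D3:**
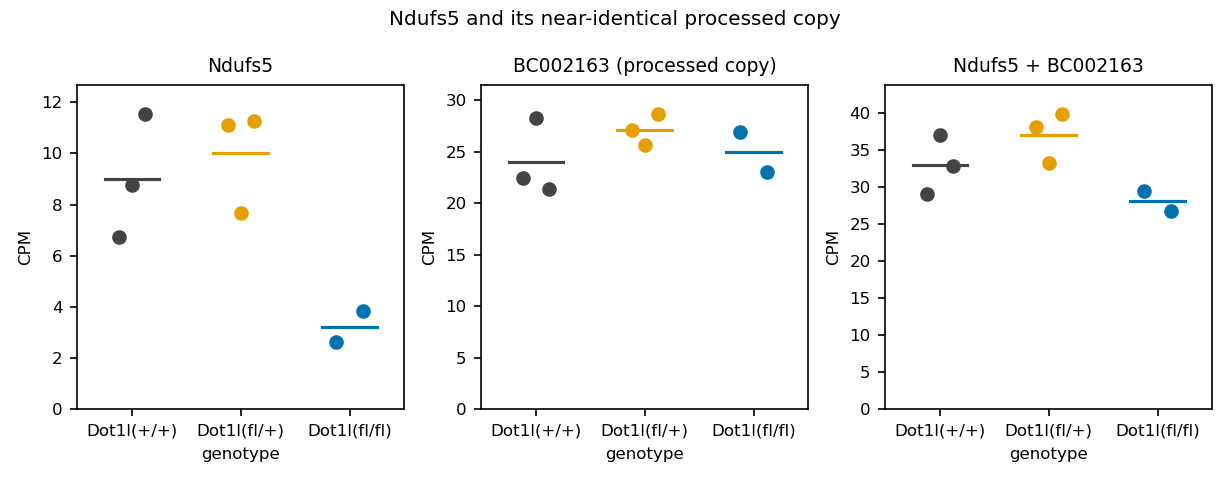
CPM of Ndufs5 (left), of its processed copy BC002163 (middle) and of their sum (right) in each library, by genotype. Points are libraries and lines are means, and each vertical axis starts at 0 with its own scale. The Dot1l(fl/fl) points are lowest for Ndufs5, lie among the others for BC002163, and for the sum lie at 29.52 and 26.85 CPM, just above and below the lowest control of 29.14 CPM.

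The 7 assembly factors among the members showed a different order of genotypes, which was not tested. In Dot1l(fl/fl) against Dot1l(+/+) 6 of 7 had a log2 fold change above 0, with a median of 0.046, while in Dot1l(fl/+) all 7 did, with a median of 0.194. Ndufaf5, which hydroxylates an arginine of Ndufs7 during assembly, was at 23.12, 23.85 and 29.05 CPM in Dot1l(+/+), 34.54, 31.42 and 38.73 CPM in Dot1l(fl/+), and 38.43 and 39.02 CPM in Dot1l(fl/fl). All 5 floxed libraries lay above all controls, with log2 fold changes of 0.61 ± 0.17 in Dot1l(fl/fl) (unadjusted p 0.00151, edgeR adjusted p 0.248) and 0.46 ± 0.15 in Dot1l(fl/+) (unadjusted p 0.00602, edgeR adjusted p 0.94). Ndufaf6, needed for an early step of assembly, was at 8.72, 8.28 and 6.89 CPM in Dot1l(+/+), 11.86, 9.52 and 12.79 CPM in Dot1l(fl/+), and 11.42 and 10.51 CPM in Dot1l(fl/fl). It too had all floxed libraries above the controls (0.46 ± 0.26 in Dot1l(fl/fl), edgeR adjusted p 0.616, and 0.52 ± 0.23 in Dot1l(fl/+), 0.94).

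Ndufaf1, part of the complex that assembles the membrane arm with Ecsit, Acad9 and Tmem126b, was at 11.62, 16.77 and 16.24 CPM in Dot1l(+/+), 17.57, 14.69 and 17.82 CPM in Dot1l(fl/+), and 11.59 and 12.02 CPM in Dot1l(fl/fl). The Dot1l(fl/fl) libraries lay below all Dot1l(fl/+) libraries and overlapped Dot1l(+/+) 1, with log2 fold changes of -0.34 ± 0.23 against Dot1l(+/+) (edgeR adjusted p 0.708) and -0.50 ± 0.23 against Dot1l(fl/+) (0.998). Of its 3 partners in that complex, Tmem126b was at 0.38 ± 0.17 in Dot1l(fl/fl) against Dot1l(+/+) (edgeR adjusted p 0.494), Ecsit at 0.07 ± 0.17 and Acad9 at -0.08 ± 0.17. The other 4 assembly factors of the family, Ndufaf2, Ndufaf3, Ndufaf4 and Ndufaf7, had log2 fold changes between 0.003 and 0.215 in Dot1l(fl/fl).

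The 2 genes with the symbol only went separate ways. Ndufa4 was at 115.57, 154.25 and 109.39 CPM in Dot1l(+/+), 135.47, 118.27 and 150.35 CPM in Dot1l(fl/+), and 137.96 and 145.79 CPM in Dot1l(fl/fl) (log2 fold change 0.17 ± 0.14), with its highest value in a control. Ndufa4l2 was at 0.73, 0.6 and 0.23 CPM, then 0.44, 0.11 and 0.46 CPM, then 0 and 0.72 CPM, close to the limit that a count of 0 allows, and no direction can be read from it (-0.54 ± 1.94).

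Whether 1 floxed allele is enough was examined in Dot1l(fl/+) against Dot1l(+/+). Of the 45 members 42 (93.3%) had a log2 fold change above 0, against 49% of all genes, with a median of 0.135, against -0.007 over all genes. Both comparisons share the Dot1l(+/+) libraries, so the second is not independent of the first. By edgeR 0 members and 0 of all genes (0%) had an adjusted p under 0.05, and DESeq2 called 0 members. At an unadjusted p under 0.05 there were 3 members (6.67%, against 5.02% of all genes), all higher: Ndufaf5, Ndufb9 and Ndufaf6. Of all genes, 2.16% were higher and 2.86% lower at that p. In 5 of the 45 members all Dot1l(fl/+) libraries lay above all controls, against 5.56% of all genes, and these were Ndufs7, Ndufb9, Ndufaf5, Ndufaf4 and Ndufaf6. In 0 members they all lay below, against 5.97% of all genes. The count of 3 became 12 without Dot1l(+/+) 2, 8 without Dot1l(fl/+) 2 and 1 without Dot1l(fl/+) 3, which also took the median to 0.083. The share of all genes is not given for these fits, so these counts cannot be set against it. The median was 0.088 over core subunits, 0.135 over accessory subunits and 0.194 over assembly factors.

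Dot1l(fl/fl) against Dot1l(fl/+) tests whether the 2 floxed genotypes differ from each other. Of the 45 members 27 (60%) had a log2 fold change above 0, against 50.2% of all genes, with a median of 0.045. By edgeR 0 members and 0 of all genes (0%) had an adjusted p under 0.05, and DESeq2 called 0 members. At an unadjusted p under 0.05 there were 4 members (8.89%, against 4.02% of all genes): Ndufa1 and Ndufa2 were higher in Dot1l(fl/fl), and Ndufs5 and Ndufaf1 lower. Of all genes, 1.86% were higher and 2.16% lower at that p. Of the assembly factors 2 of 7 had a value above 0, with a median of -0.122, the lowest of the roles. In 6 of the 45 members Dot1l(fl/fl) lay wholly above Dot1l(fl/+), against 10.2% of all genes. In 3 of the 45 (Ndufs5, Ndufaf1 and Ndufaf2) it lay wholly below, against 9.57%. Without Dot1l(fl/+) 2 the median was -0.011, and without Dot1l(fl/+) 3 it was 0.113, so single libraries decided its sign and size. The count of 4 became 1 without Dot1l(fl/+) 1, a fit for which the share of all genes is not given.

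A trend over the 3 genotypes, linear in floxed alleles, gave a median of 0.09 per allele over the 45 members, with 40 above 0, against 49.8% of all genes. By edgeR 0 members and 0 of all genes (0%) passed the adjusted threshold. With an unadjusted p under 0.05 there were 9 members (20%, against 10.1% of all genes), 8 higher (against 4.48% of all genes) and 1 lower (against 5.61%). The smallest edgeR adjusted p of a member was 0.175. The count of 9 became 20 without Dot1l(+/+) 2, 3 without Dot1l(+/+) 1, and 5 without Dot1l(+/+) 3. Without Dot1l(+/+) 2, 268 of all 17721 genes had an edgeR adjusted p under 0.05, against 0 with all libraries. The share of all genes at the unadjusted threshold is not given for these fits. The median of the members ranged from 0.057 without Dot1l(+/+) 3 to 0.14 without Dot1l(+/+) 2.

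The level of the members as a whole also varied between libraries of a genotype. The median over the 45 of log2 CPM minus the Dot1l(+/+) mean was -0.071, 0.142 and -0.112 in the 3 control libraries, 0.123, 0.043 and 0.238 in those of Dot1l(fl/+), and 0.176 and 0.157 in those of Dot1l(fl/fl). Dot1l(+/+) 2 thus lay above both Dot1l(fl/+) 1 and 2 and just below the Dot1l(fl/fl) libraries. The genotype means differed by 0.18 between Dot1l(fl/fl) and Dot1l(+/+) and by 0.148 between Dot1l(fl/+) and Dot1l(+/+), against a pooled SD within genotypes of 0.106. After subtracting this library median, the SD over the 8 libraries was 0.039 for Ndufa9, 0.817 for Ndufs5, 0.363 for Ndufb4, 0.279 for Ndufaf1 and 0.246 for Ndufaf5, and only Ndufa4l2 had a larger one than Ndufs5, at 1.24.

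**Figure D4:**
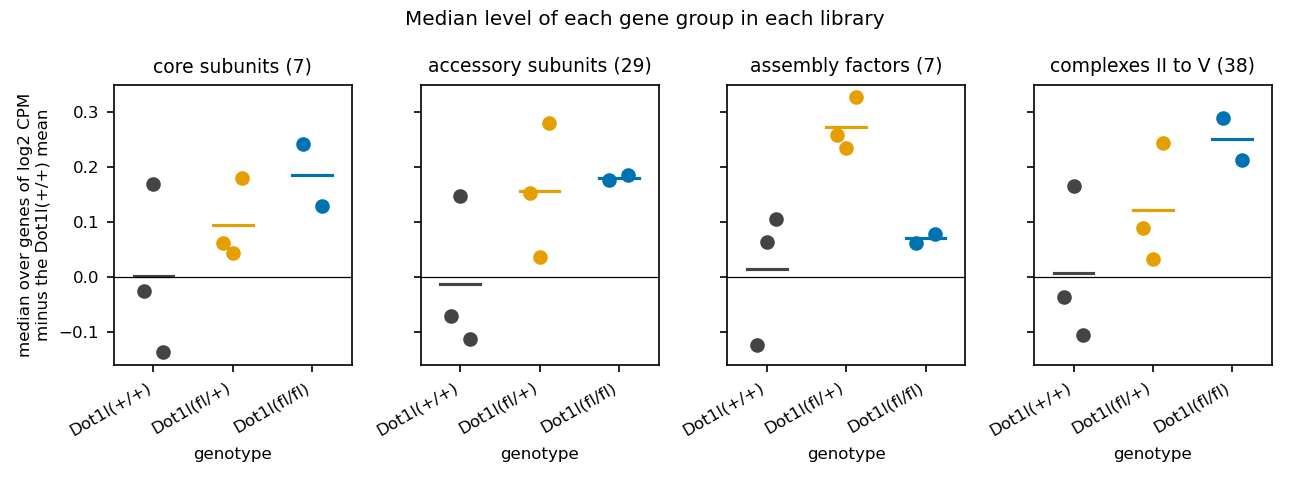
Median over the genes of a group of log2 CPM minus the Dot1l(+/+) mean (vertical axis) in each library, by genotype, for the core subunits, accessory subunits and assembly factors of complex I and for nuclear subunits of complexes II to V. Points are libraries and lines are genotype means. Dot1l(+/+) 2 is the highest control for the subunits, and the assembly factors are highest in the 3 Dot1l(fl/+) libraries, at 0.235 to 0.327.

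The same libraries were high for the other complexes. Over 38 nuclear subunits of complexes II to V, 35 had a log2 fold change above 0 in Dot1l(fl/fl) against Dot1l(+/+), with a median of 0.241, and 33 did in Dot1l(fl/+), with a median of 0.128. In Dot1l(fl/fl) 19 of the 38 (50%) had an unadjusted edgeR p under 0.05, all higher. The share higher at that p was 13.3% of the complex I members and 4.24% of all genes. The smallest edgeR adjusted p of the 38 was 0.248. The difference between these genes and the complex I genes was not tested. Genes of complex I outside the symbol rule were also examined. Of 12 other assembly factors 9 had a value above 0 in Dot1l(fl/+) against Dot1l(+/+), with a median of 0.082. Their median in Dot1l(fl/fl) against Dot1l(fl/+) was 0.001, so they did not show the order of the 7 in the family. In Dot1l(fl/fl) against Dot1l(+/+) 9 lay above 0, with a median of 0.066, and only Tmem126b had an unadjusted edgeR p under 0.05 (0.0368). Of the 7 core subunits encoded by mitochondrial DNA, 5 could be tested, and 3 of these had a value above 0, with a median of 0.037. Among them mt-Nd1 was at 0.07 ± 0.08 and mt-Nd4 at 0.11 ± 0.11.

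The members are short genes, and shorter genes lay higher in Dot1l(fl/fl) across the genome. Their median exon length was 1718 bases, against 3827 bases over 17919 genes tested with a length. Across genes, which are not independent replicates, Spearman's rho between exon length and log2 fold change in Dot1l(fl/fl) was -0.197 over all genes and -0.188 over the 45 members. With exon length and GC content fitted as an offset in each library, 33 of 45 members had a value above 0 in Dot1l(fl/fl) against Dot1l(+/+), with a median of 0.08, and 39 in Dot1l(fl/+) against Dot1l(+/+), with a median of 0.093. Against Dot1l(fl/+) the Dot1l(fl/fl) median became -0.003, with 22 above 0. Ndufs5 was at -1.65 against Dot1l(+/+) with the offset, with an edgeR adjusted p of 0.106.

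**Figure D5:**
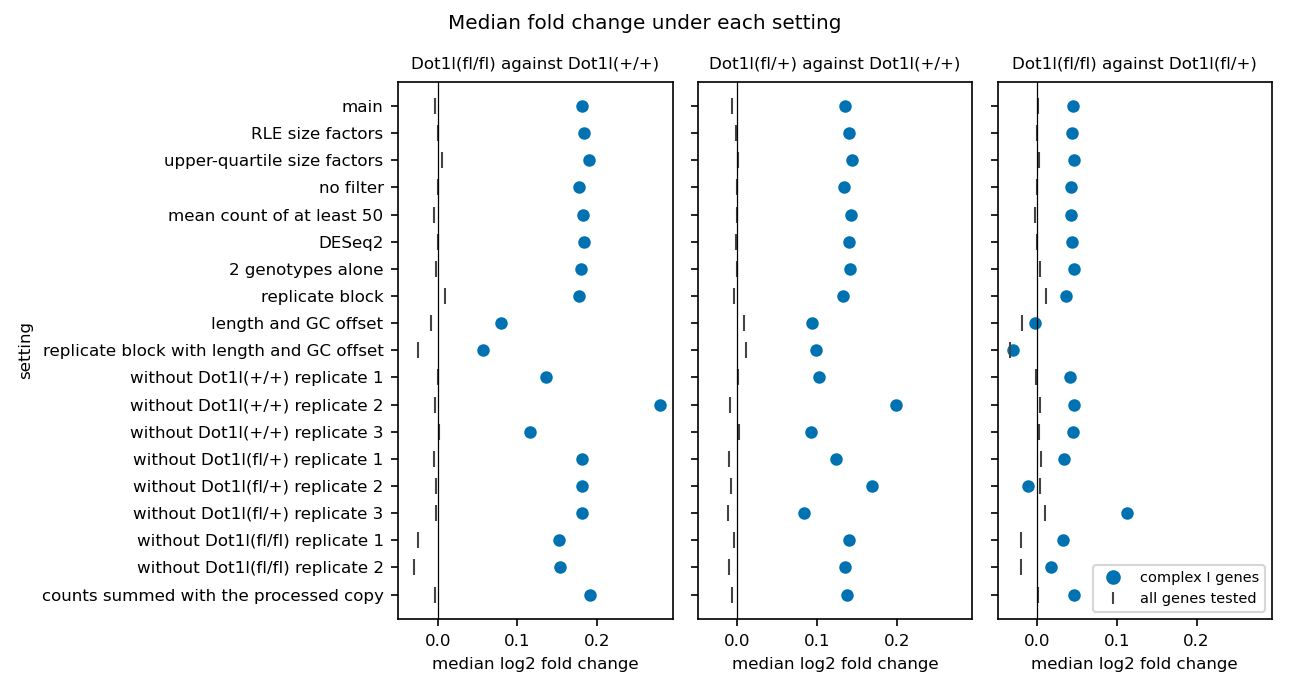
Median log2 fold change of the 45 complex I genes (circles) and of all genes tested (ticks) under each setting, in the 3 comparisons between genotypes. The Dot1l(fl/fl) median against Dot1l(+/+), 0.181 as reported, is lowest at 0.057 with the replicate block and the length and GC offset, followed by 0.08 with the offset alone, and highest at 0.279 without Dot1l(+/+) 2.

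Marker lists of cells and states were set beside these values. Of the 10 DA neuron markers, 9 had a log2 fold change below 0 in Dot1l(fl/fl) against Dot1l(+/+) and 1 above, with a median of -0.293. By edgeR 6 of the 10 had an unadjusted p under 0.05, all lower, against 5.03% of all genes. Their smallest edgeR adjusted p was 0.16. Both Dot1l(fl/fl) sums of these markers lay below those of all other libraries. The 10 genes that respond to dissociation summed to 946.2 to 1090 CPM in Dot1l(+/+) and 914.4 to 1151.3 CPM in Dot1l(fl/+). Their sum was 1279.1 and 1257.2 CPM in Dot1l(fl/fl), above all others. In Dot1l(fl/fl) against Dot1l(+/+) 7 of them had a log2 fold change above 0 and 3 below, with a median of 0.396. By edgeR 6 had an unadjusted p under 0.05, all higher, against 4.24% of all genes, and the smallest edgeR adjusted p was 0.147. The 5 GABAergic neuron markers summed to 203.6 to 223.9 CPM, 195.7 to 230 CPM, and 264 and 234.7 CPM. Of these 5 genes 2 had a log2 fold change above 0 in Dot1l(fl/fl) against Dot1l(+/+), with a median of -0.137. The higher sum lay mostly in Slc32a1, the vesicular GABA transporter, at 112.71, 108.28 and 110.02 CPM in Dot1l(+/+) and 156 and 129.3 CPM in Dot1l(fl/fl). Blood markers, with 1 of 6 at 0 in every library, were at 11.9 to 18.7 CPM in the other libraries and at 16.7 and 33.4 CPM in Dot1l(fl/fl). Microglia, endothelium, radial glia, oligodendrocyte precursor, glutamatergic, serotonergic and muscle lists overlapped between Dot1l(+/+) and Dot1l(fl/fl) or reached no more than 14.3 CPM in any library. In bulk libraries fewer cells of a type and less RNA per cell cannot be told apart, and the part of these lists in the complex I values was not tested.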

How the data were processed

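RNA of 8 libraries of FACS-sorted, YFP-positive midbrain neurons was analysed. Per library, the authors deposited raw counts of reads for each Ensembl gene. The study's methods name a directional kit and mapping to GRCm38.p4, and the submitters' processing notes list bcl2fastq 2.17, Trimmomatic 0.30 and DESeq2 1.10.1. The aligner, counter and strand setting are not given in the sources used here. The authors' deposited comparison tables hold a mean normalised signal, fold changes and p-values, and only their gene symbols were used.

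Counts were tested with edgeR 4.0.16 (R 4.3.3, TMM factors, filterByExpr, quasi-likelihood F test, 3 genotypes in one fit), with Benjamini-Hochberg adjustment over 17988 genes and a threshold of 0.05. Log2 CPM used a prior count of 2. DESeq2 1.42.0, other size factors, other filters, the 2 genotypes alone, a replicate block, a length and GC offset (splines with 4 degrees of freedom) and each library left out were alternatives. Counts summed with processed copies were added after seeing the data. Replicates differed by more than sampling noise (chi-square per degree of freedom 16.98 to 40.47). The scripts were tested on simulated data.

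Coordinates and lengths came from GENCODE M21 (GRCm38) and promoters from RefSeq. Copies were aligned with Biopython 1.88. The members, lists and rules were chosen with earlier results of these data known. Genes given in every library were Ndufs5, the core subunits (1 of which is not reported here), the 5 members with the smallest p and the 3 with the largest rise in Dot1l(fl/fl) against Dot1l(+/+), every member below 0 there, the 2 highest and 2 lowest per kilobase, Ndufa4 and Ndufa4l2.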

Additional observations from a re-analysis of the deposited data

How the results depend on the processing

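With RLE or upper-quartile factors, a mean count of at least 50, DESeq2 (which left 22 members without an adjusted p for Dot1l(fl/fl) against Dot1l(+/+), and 17 for the allele term), the 2 genotypes alone or summed copies, 0 members were called in each comparison and each median kept its sign. Without a filter 1 member, Ndufs5, was called when Dot1l(fl/fl) was set against Dot1l(+/+), and again, as the 1 member, against Dot1l(fl/+). Of all 23694 genes then tested, 106 were called against Dot1l(+/+) and 14 against Dot1l(fl/+).

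The study paired genotypes within litters, but that replicate numbers mark the same litters is not given in the sources used here. Between libraries that share a number, r of the deviations across genes lay between -0.031 and 0.045, and the fit without the block was kept. With the replicate block alone the medians were 0.177, 0.132 and 0.036. With the replicate block and the length and GC offset, the median was 0.057 in Dot1l(fl/fl) against Dot1l(+/+), and -0.03 against Dot1l(fl/+), where 1 member, Ndufs5, was called, while the offset alone gave -0.003 there. Ndufs3 became -0.014 under both. The cause was not tested.

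Leaving out 1 library gave medians from 0.116 (without Dot1l(+/+) 3) to 0.279 (without Dot1l(+/+) 2) in Dot1l(fl/fl) against Dot1l(+/+), 0.083 to 0.199 in Dot1l(fl/+) against Dot1l(+/+), -0.011 to 0.113 between the floxed genotypes and 0.057 to 0.14 for the allele term, with 0 members called throughout. At an unadjusted p under 0.05 the 7 members in the first became 22 without Dot1l(+/+) 2 and 2 without Dot1l(+/+) 1. Without Dot1l(+/+) 2, 75 of all 17721 genes had an edgeR adjusted p under 0.05 in the first comparison, and 268 for the allele term. Single omissions turned the sign of 11 members in the first comparison, up to 6 at once (without Dot1l(fl/fl) 2). Of the members given in every library these were Ndufs1 (-0.004 to 0.153), Ndufs3 (-0.027 to 0.349), Ndufb7 (-0.084 to 0.029, and 0.028 without Dot1l(fl/fl) 2) and Ndufa4l2 (-6.97 to 0.467, its fitted value where 1 library at 0 remained), and Ndufs5 ranged from -1.78 to -1.24. Where 1 Dot1l(fl/fl) library remained, it was assumed to vary like the other genotypes.

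The 2 Dot1l(fl/fl) libraries and their depth limited the precision for members of low level such as Ndufs5, Ndufb4 and Ndufa4l2. The limit given for a count of 0 covers counting error only.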
